A study of Mus musculus with 9 samples.

Results

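Strong remote G1297-only sites are regions bound by EWS/ATF1 in the murine sarcoma line G1297 that lay far from any binding site called in sarcoma-iPSC MEFs. They were selected on 2 measured values of each G1297 peak, a score of at least 500 and a gap of more than 5 kb, edge to edge, to the closest MEF peak of that chromosome. This rule chose 431 of the 8090 G1297 peaks (5.33%). G1297 peaks that overlapped no MEF peak numbered 3006 (37.2%), and G1297 peaks with a score of at least 500, called strong here, numbered 2498 (30.9%), so the chosen sites made up 17.3% of the strong peaks. Because score and gap chose the sites, all values that involve either of them are given below as a description of what was chosen, with no test.

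EWS/ATF1 binding was measured by ChIP-Seq with an antibody against hemagglutinin (HA), the tag carried by the fusion protein. The comparison addresses where the fusion protein binds in tumour cells and in fibroblasts derived from them by reprogramming. G1297 is a clear cell sarcoma line from mice in which doxycycline (Dox), acting through the M2rtTA activator at the Rosa locus, turns on an EWS/ATF1 transgene at Col1a1, and it grows only while Dox is given. The sarcoma-iPSC MEFs are embryonic fibroblasts that carry the same Dox-controlled alleles, and they stop dividing in Dox.

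G1297 was represented by 2 HA ChIP libraries and 2 numbered input libraries, and the MEFs by 1 HA ChIP library and 1 input library. Dox was given at 0.2 µg/ml for 12 h before HA ChIP in both cell types. G1297 is a single tumour-derived line. The MEFs came from chimeric embryos made with iPSC clone #3, which had been reprogrammed from G1297, were selected with puromycin, and carry some of the chromosomal abnormalities of the sarcomas. The authors deposited 1 list of peaks per cell type, and the sources used here do not give which G1297 libraries and which inputs entered the G1297 list. The lists hold no read counts and no values per replicate, so depth is unknown and no value below has a replicate error. A gap to the nearest MEF peak therefore means that no closer region passed the authors' threshold in that list, not that EWS/ATF1 was absent there.

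EWS/ATF1 joins the amino-terminal part of EWS, a strong activator of transcription, to the DNA-binding bZIP domain of ATF1. ATF1 belongs to the CREB family, whose members bind the cyclic AMP response element as dimers and normally activate genes after a rise in cyclic AMP. Such factors bind at promoters and at enhancers, and which enhancers are accessible differs from one cell type to another. Clear cell sarcoma has features of the neural crest and melanocyte lineages, whereas embryonic fibroblasts are mesenchymal cells.

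The score is the authors' MACS value, -10 times the log10 of the P value of a peak, and the lowest score in the G1297 list was 90.04. Scores of the strong remote sites ran from 500.02 to 3100, with a median of 909.7 and quartiles of 657 and 1373. Their gaps to the nearest MEF peak ran from 5.09 kb to 1168 kb, with a median of 29.1 kb. A MEF peak lay within 100 kb of 356 sites (82.6%), and 138 sites (32.0%) lay more than 50 kb from any. Among the 1908 weak remote G1297-only peaks, which passed the gap but not the score, 33.2% lay more than 50 kb from a MEF peak.

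The thresholds passed through the middle of continuous ranges of values. Just inside the score threshold were sites on chromosomes 12, 15 and 18 with scores of 500.02, 500.53 and 502.18, and just outside it, among peaks that passed the gap, were those on chromosomes 6, 2 and 4 with scores of 498.4, 498.17 and 497.74. Just inside the gap threshold were sites at chr5:115181617-115182872, chr9:79759284-79760253 and chr2:155710714-155711797, with gaps of 5090 bp, 5102 bp and 5166 bp. The strong peaks just outside it lay on chromosomes 17, 10 and 6, with gaps of 4914 bp, 4901 bp and 4838 bp. In all, 105 strong peaks overlapped no MEF peak but lay within 5 kb of one, and 1962 strong peaks shared at least 1 bp with a MEF peak. The latter are called strong common sites.

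**Figure D1:**
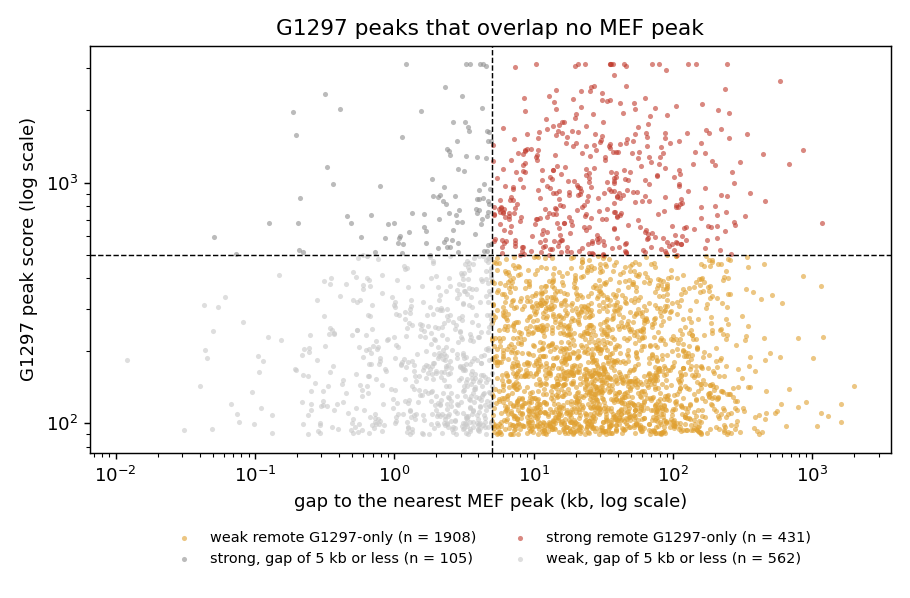
Score of each G1297 peak that overlapped no MEF peak (y axis, log scale) against its gap to the nearest MEF peak in kb (x axis, log scale), with 1 point per peak and dashed lines at the thresholds of 500 and 5 kb. The 431 strong remote sites fill the upper right part, and neither threshold coincides with a break in the points.

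The makeup of the strong peaks by score describes the choice itself, since both of its values enter the rule. Of the strong peaks with scores from 500 to below 750, 20.2% were remote sites, and the share was 20.7% from 750 to below 1000 and 21.1% from 1000 to below 1500. It was 13.1% from 1500 to below 2500 and 6.69% at 2500 or more, where 22 of 329 peaks were remote sites and 301 (91.5%) were strong common sites. The median score was 1123 in strong common sites and 909.7 in strong remote sites.

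At the top of the range, 13 strong remote sites shared a score of exactly 3100, a value that also occurred in 191 strong common sites and that does not rank peaks among themselves. Whether it is a ceiling of the score is not given in the sources used here, and 11 strong common sites scored above it, so equal scores are not read as equal binding. Ordered by width, the first of these 13 lay on chromosome 11 from 103242708 to 103245570 (mm9). It was 2863 bp wide, the widest of the 431 sites, and its nearest MEF peak was 147 kb away with a score of 109.43. Next to it, at 1171 bp, lay a weak remote G1297-only peak with a score of 272.01.

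The next in this order lay at chr4:152156642-152158853 and chr10:69630881-69632899, with gaps of 23.2 kb and 44.2 kb. They were followed by chr6:106742351-106744277 (gap 10.4 kb), chr1:157636626-157638502 (244 kb) and chr14:31383776-31385386 (20.6 kb). The remaining sites of the 10 widest were chr1:193939669-193941172 (70.6 kb), chr6:17053408-17054910 (37.0 kb), chr6:98224013-98225455 (128 kb) and chr5:44119258-44120607 (79.7 kb). These 10 sites lay on 7 chromosomes.

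The surroundings of these 10 sites differed widely. Around the site on chromosome 1 at 157636626, no MEF peak and only 1 other G1297 peak had its centre within 150 kb. Around the site on chromosome 6 at 17053408, by contrast, there were 11 MEF peaks and 8 other G1297 peaks in the same window, several of them at matching positions. The chosen sites at this score thus included both one in a stretch nearly empty of called binding and one near regions called in both cell types. The nearest MEF peak had a score under 500 in 9 of the 10 cases, against 63.6% of all 431 sites, and a score of 3100 in the other, on chromosome 6 at 98224013.

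**Figure D2:**
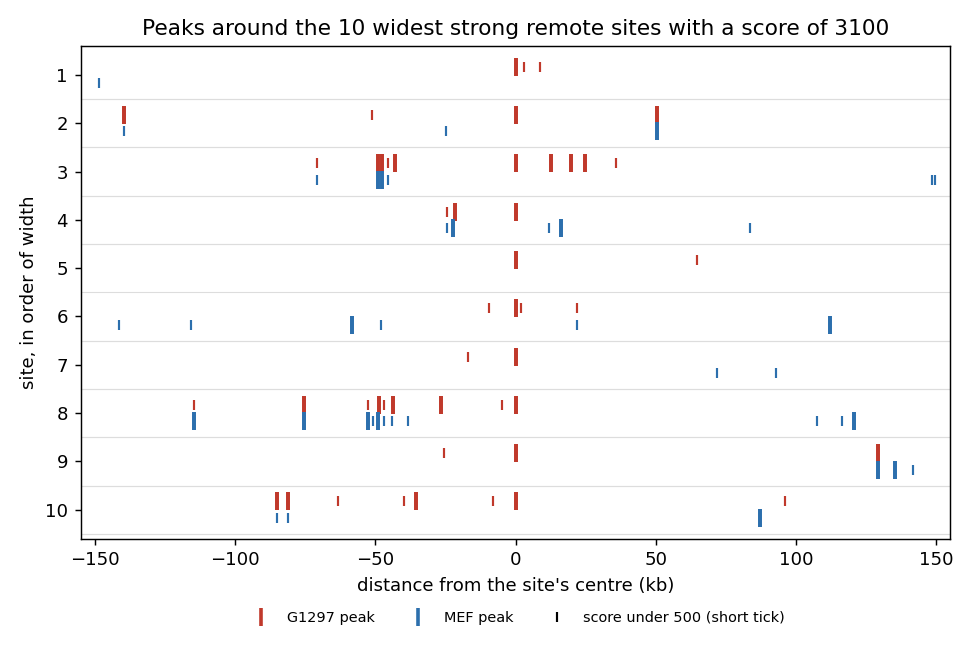
Called peaks within 150 kb of the 10 widest of the 13 strong remote sites with a score of 3100, 1 row per site in order of width, with the distance of each peak's centre from the site's centre in kb on the x axis. Red ticks are G1297 peaks, blue ticks are MEF peaks and short ticks are peaks with a score under 500; row 5 holds no MEF peak and row 8 holds 11.

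Peak width was not used to choose the sites. Strong remote sites had a median width of 1138 bp (quartiles 1000.5 and 1330 bp) and together covered 518 kb. The median was 1197.5 bp in strong common sites and 701 bp in weak remote sites, against 815 bp over all G1297 peaks. Wider peaks had higher scores, and Spearman's rank correlation of the 2 values across peaks was 0.572 over the 431 strong remote sites and 0.699 over the 1962 strong common sites. These are descriptions of peaks from the same libraries, which are not independent replicates.

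Within bands of similar score, the quartile ranges of remote and common sites overlapped. From 500 to below 750 the median widths were 1002 bp in 153 strong remote sites and 1007 bp in 558 strong common sites, and from 1000 to below 1500 they were 1196.5 bp in both. From 750 to below 1000 the remote sites were wider by their medians, 1114 bp against 1079.5 bp. They were narrower from 1500 to below 2500, at 1277 bp against 1333 bp, and at scores of 2500 or more, at 1479 bp against 1623 bp. Widths above 2 kb occurred in 11 strong remote sites (2.55%) and in 93 strong common sites (4.74%). The direction of the difference in median width thus changed between bands, and no test was made because peaks are not replicates.

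**Figure D3:**
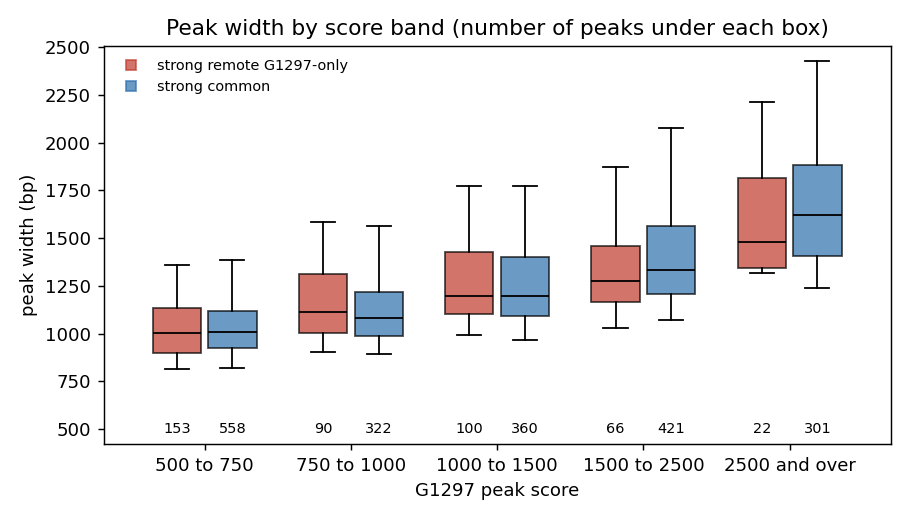
Peak width in bp (y axis) by band of G1297 score (x axis) for strong remote sites (red) and strong common sites (blue), where boxes give the median and quartiles, whiskers leave out the lowest and the highest 5%, and numbers give the peaks in each box. Width increases with score in both groups, and the boxes of each band overlap, with medians of 1002 and 1007 bp in the lowest band.

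The stretches around the sites that held no MEF peak varied greatly in length. For the 429 sites with a MEF peak on both sides, the distance between the flanking MEF peaks had a median of 145 kb and ran from 14.2 kb to 3488 kb. The 431 sites fell into 386 different stretches, of which 345 held 1 site, 38 held 2 and 3 held 3 or 4. Most of these stretches thus held 1 strong remote site, and other G1297 peaks in them were not counted here.

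The MEF peaks nearest to strong remote sites resembled the MEF list as a whole in score. Their median score was 333, against 315 over all MEF peaks, and 274 of the 431 sites (63.6%) had a nearest MEF peak with a score under 500, against 64.2% of all MEF peaks. They differed more in whether they were themselves common: for 193 sites (44.8%) the nearest MEF peak overlapped a G1297 peak, while 18.5% of all MEF peaks did. The share was 37.1% for weak remote sites. Around strong remote sites a median of 3 MEF peaks lay within 100 kb, the same as around weak remote sites, and around strong common sites the median was 6, which includes the overlapping peak.

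The 3 sites farthest from any MEF peak differed in score. The farthest, on chromosome 5 from 62002689 to 62003667, had a score of 683.17 and lay 1168 kb from a MEF peak and 2500 kb from any other G1297 peak. The second, on chromosome 1 from 87504343 to 87505804, had a score of 1366.83 and a gap of 861 kb, and it was 1 of 3 strong remote sites in the longest MEF-free stretch. That stretch ran from 84878477 to 88366755 and held 6 G1297 peaks, the other 3 of them weak. The third, on chromosome 3 from 139548582 to 139550935, had a score of 1191.65, a width of 2354 bp and a gap of 675 kb, with the nearest other G1297 peak at 2583 kb. Of these 3 sites, 2 thus had no other G1297 peak within 1000 kb.

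Strong remote sites had a further G1297 peak close by about as often as G1297 peaks in general. A distance of 12.5 kb, the default within which the super-enhancer tool ROSE joins peaks, was used to call peaks neighbours. By it, 197 of the 431 sites (45.7%) had a neighbour, against 3330 of all 8090 G1297 peaks (41.2%), a share near that background. By the gap, which is a value of the rule, it was 81.7% (58 of 71) up to 10 kb and 38.6% (139 of 360) beyond. The share was 50.7% in strong common sites and 30.9% in weak remote sites, and the median distance to the nearest other G1297 peak was 14753 bp, 12203.5 bp and 30373 bp in strong remote, strong common and weak remote sites, respectively. Within 5 kb, 21.8% of strong remote sites had another G1297 peak, against 32.8% of strong common sites, 14.6% of weak remote sites and 25.8% of all G1297 peaks. Strong remote sites thus stood between the other 2 groups at both distances, above all G1297 peaks at 12.5 kb and below them at 5 kb.

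**Figure D4:**
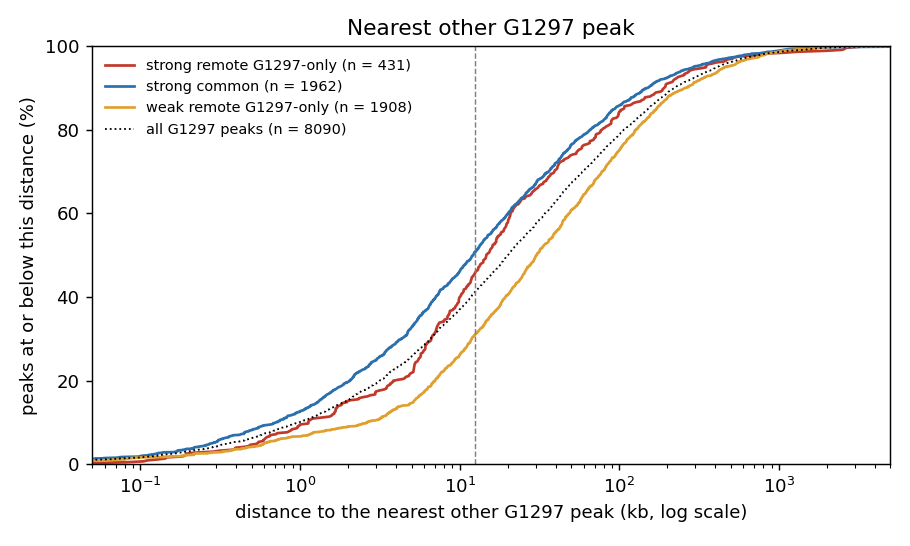
Cumulative share of peaks in % (y axis) by the distance to the nearest other G1297 peak in kb (x axis, log scale), with 1 line per group of peaks and a dashed line at 12.5 kb. At that distance the line of strong remote sites stands at 45.7%, between those of strong common sites (50.7%) and weak remote sites (30.9%).

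The gap rule limits which peaks can lie next to a site, and the score rule makes a lower neighbour the usual case, so the neighbours are described only. Of the 197 nearest neighbours within 12.5 kb, 104 (52.8%) were weak remote G1297-only peaks and 35 (17.8%) were other strong remote sites. Common peaks made up 46 of them, 26 strong and 20 weak, and the remaining 12 were weak peaks within 5 kb of a MEF peak. The neighbour had the lower score in 160 cases (81.2%), and 136 neighbours (69.0%) had a score under 500, against 69.1% of all G1297 peaks. These 2 shares were nearly equal. No other G1297 peak lay within 100 kb of 68 sites (15.8%), against 14.3% of strong common sites, 25.1% of weak remote sites and 21.3% of all G1297 peaks. Neither a G1297 nor a MEF peak lay in that distance of 32 sites (7.42%), against 9.43% of weak remote sites, which passed the same gap, and 2.62% of all G1297 peaks.

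Larger arrangements were uncommon. When G1297 peaks were chained at 12.5 kb, 78 strong remote sites (18.1%) lay in clusters of at least 3 peaks, a share near the 17.9% of all G1297 peaks. It was 23.5% in strong common sites and 11.0% in weak remote sites. These 78 sites fell in 64 clusters, and 22 of the clusters, with 30 of the sites, held no peak that overlapped a MEF peak. When only strong remote sites were chained, they formed 407 groups, of which 385 were single sites, 21 were pairs and 1 held 4 sites.

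The group of 4 lay on chromosome 10 from 69630881 to 69657086, spanning 26.2 kb, and included one of the sites with a score of 3100. From left to right its sites had scores of 3100, 1346.57, 1605.88 and 1219.22, and a weak remote peak with a score of 101.06 lay 10.2 kb beyond the last. All 5 stood in a MEF-free stretch of 193 kb, which held 1 further G1297 peak, a strong one within 5 kb of a MEF peak. The next groups, taken by their highest score, were pairs at chr1:184255950-184262668, with scores of 1335.8 and 3100, and at chr5:127624989-127628342, with scores of 2931.31 and 871.55. The nearest MEF peaks lay 35.2 kb and 87.4 kb from these pairs.

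At a coarser scale, the median distance to the nearest other strong remote site was 909.7 kb. Another such site lay within 100 kb of 102 sites (23.7%) and within 1000 kb of 220 (51.0%), and these values were not set against an expected spacing. The densest window of 1 Mb, on chromosome 12 and chosen after its values were seen, held 6 sites between 99555444 and 99908190, in 353 kb. They were not a single cluster, since MEF peaks divided the window into several MEF-free stretches, of which one of 238 kb held 3 sites and another of 95.2 kb held 2.

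A pair of strong remote sites lay in an interval that the study displays for Setd4 and Cbr1, the first encoding a SET domain methyltransferase and the second a carbonyl reductase. The interval, of 120 kb on chromosome 16, was set from that display and not from an annotation, and no distance to either gene is given. It held 4 G1297 peaks and 7 MEF peaks. The chosen sites, from 93593166 to 93594270 and from 93596597 to 93597697, had scores of 1272.58 and 663.44 and were 2326 bp apart. The other G1297 peaks were weak remote ones, with scores of 110.79 and 121.05, on either side of the pair. The MEF peak nearest to both sites lay at higher coordinates, 10.3 kb and 6.88 kb away, with a score of 206.55.

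Strong remote sites were found on all 19 autosomes and on X, with a further 2 on unplaced contigs. Chromosome 5 held the most, 43 sites or 9.98% of the total, against 7.45% of all G1297 peaks and 6.27% of strong common sites. Chromosomes 1, 2 and 10 followed with 37, 35 and 35 sites. Chromosome 7 held 6 sites (1.39%), against 4.07% of all G1297 peaks and 3.36% of strong common sites, and chromosome 19 held 7 (1.62%), against 2.95% and 3.26%.

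Set against the strong peaks of the same chromosome, the share of strong remote sites was highest on chromosomes 5, 9, 12 and 10 (25.1%, 23.3%, 20.6% and 20.5%), leaving aside X. It was 8.11% on chromosome 7, 8.86% on chromosome 19 and 11.0% on chromosome 3, the lowest shares, against 17.3% over the whole list. The order of chromosomes thus differed from that of the G1297 list as a whole, in which chromosome 6 held the largest share, 7.78%, and chromosome 6 had 32 strong remote sites, 15.8% of its strong peaks. On X, 3 of 8 strong peaks were remote sites. Neighbouring peaks are not independent and the chromosomes were not tested. The paper reports chromosomal abnormalities in G1297, and the MEFs carry some of those of the sarcomas. Copy number per chromosome was not examined here, so these shares are not read as differences in binding between chromosomes.

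**Figure D5:**
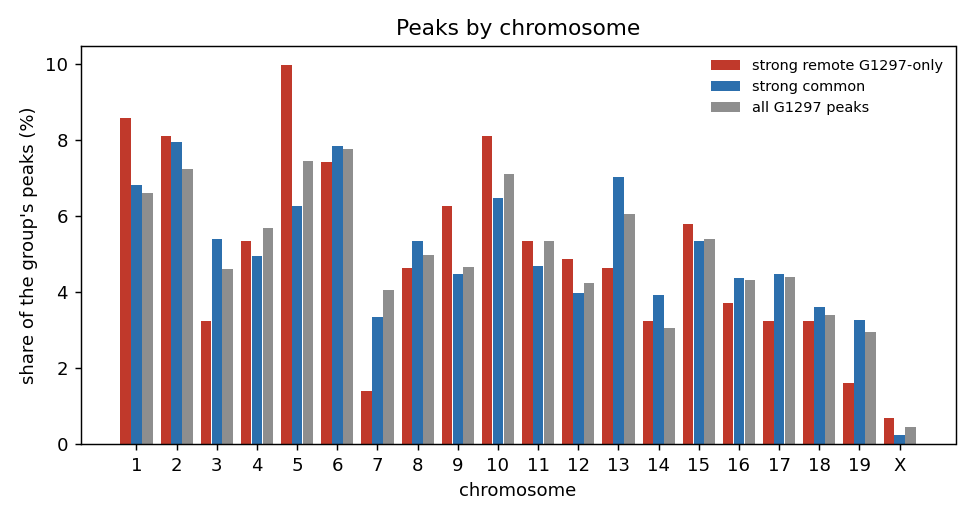
Share of each group's peaks in % (y axis) on each chromosome (x axis) for strong remote sites (red), strong common sites (blue) and all G1297 peaks (grey). The red bar stands above the others on chromosome 5 (9.98%) and below them on chromosomes 7 (1.39%) and 19 (1.62%).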

How the data were processed

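ChIP-Seq peak lists of G1297 and sarcoma-iPSC MEFs were analysed. Per the labels, reads were checked with FastQC, trimmed with cutadapt, aligned with Bowtie2 2.2.0 to mm9 and called with MACS 1.4.2. The authors deposited positions and a score per peak, at a P value threshold of 1e-09. Coordinates are mm9, as 191 peaks ended past GRCm38 chromosome ends. No mm9 genome or annotation was used here, so no sequences, motifs, promoters or nearest genes are given (the Setd4 and Cbr1 interval follows the study's own display of that region), and the marker lists drawn up for nearest genes were not run. Gaps, overlaps (at least 1 bp), neighbours and chains were computed with numpy 2.4.6, pandas 2.3.3 and scipy 1.17.1 in Python 3.11.15, and were tested on simulated lists. Named regions were the 10 highest-scoring sites (13 tied at 3100, so the 10 widest of these), the 3 farthest from MEF peaks, the 3 largest groups, the 3 peaks on each side of each threshold (that met the other one), and sites in the Setd4 and Cbr1 interval. Other sites are named only where the text says so. The sites and lists were chosen with earlier results of these data known. Peaks are not replicates, depth is unknown, and no test was made. Alternatives were other thresholds, distances, MEF lists and units of counting. Ebf1-KRAB and Nanog-KRAB libraries were not analysed.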

Additional observations from a re-analysis of the deposited data

How the results depend on the processing

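The number of strong remote sites, 431, was 138 at a gap over 50 kb and 188 at a score of at least 1000. It was 944 with only MEF peaks of score 500 or more and 1052 with as many top-scoring MEF peaks as G1297 peaks. Of the 513 sites gained without MEF peaks under 500, 453 were common sites, which overlap a MEF peak of the full list. That full list holds 27130 peaks, against 8090 G1297 peaks. Under 6 other settings the number of strong remote sites stayed within 1.5 times, from 360 to 618. Among these settings was the omission of contigs (429), which was chosen after seeing the data. The median width was 1268.5 bp at scores of at least 1000. The share with a neighbour was 21.8% within 5 kb, 73.8% within 50 kb (all G1297 peaks 25.8% and 67.2%) and 18.8% when only strong neighbours counted (all strong peaks 26.3%). The shifts in the number of sites and in their own share with a neighbour follow from the settings' construction. Width is not part of the rule, but it rose with score among the strong remote sites (Spearman's rank correlation 0.572). Their median width was 1002 bp at scores from 500 to below 750 and 1479 bp at 2500 or more. A score threshold of 1000 leaves out the lower bands, and the shift in median width was not tested further. How the sites' shares stood to those of all G1297 peaks or all strong peaks was not tested either. The share on chromosome 5 (9.83 to 10.0%) and the width without scores of 3100 stayed within the 95% binomial intervals of the main values, used as a tolerance and not as a test. The 6 alternatives for motifs, promoters and nearest genes were not run. No paired analysis was possible because the lists hold no replicate values. Depth is unknown for every library, so a MEF peak missed at low depth cannot be told apart from an unbound site.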
